A study of Mus musculus with 2 samples.

Results

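The major histocompatibility locus of the mouse was taken as the stretch of chromosome 17 from 34.1 to 36.5 Mb, in the coordinates of the deposited region lists. Every listed region of either factor that overlapped this stretch was counted as a member, which gave 165 of 68319 ELF3 regions and 84 of 14217 NFKB2 regions. On the whole of chromosome 17 the lists held 2653 ELF3 and 627 NFKB2 regions. The stretch was chosen by position and not by any measured value. It is named for the genes it is stated to hold, which run from Tapbp and H2-K1 through the class II and class III genes to H2-D, H2-Q and H2-T. That content was not checked against an annotation of the files' build, and no region was assigned to a gene.

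The locus encodes the proteins that display peptides to T cells. Class I molecules (H2-K1, H2-D1 and their H2-Q and H2-T relatives) present peptides from inside the cell, after the immunoproteasome subunits Psmb8 and Psmb9 have cut them, the transporter Tap1 and Tap2 has carried them into the endoplasmic reticulum and tapasin (Tapbp) has helped to load them. Class II molecules (H2-Aa, H2-Ab1, H2-Eb1) present peptides from outside, and the class III stretch between holds the cytokine genes Tnf, Lta and Ltb. Interferon γ and TNFα are known to raise class I expression in many cell types, and class I promoters are known to carry a κB element (enhancer A) beside an interferon-stimulated response element. ELF3 is an ETS-family factor of epithelia, whose family binds sites with a GGAA core. NFKB2 is the NF-κB protein p100, whose processed form p52 binds κB sites.

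The data are CUT&RUN libraries, in which an antibody directs a nuclease to the chromatin around a protein and the freed DNA is sequenced. There were 2 libraries, 1 with an antibody to ELF3 and 1 with an antibody to NFKB2. Both came from a primary culture of renal tubular epithelial cells from the kidney of mice labelled wild type, and the cells had received TNFα and IFNγ together. Both libraries carry the label batch 1. The sources used here do not state strain, age, dose or time of treatment, or whether cells of several animals were pooled. All cells were treated, so no value here is a response to the cytokines. Gene expression was not measured, so the cell type was not checked against marker genes. With 1 library per antibody there is no replicate error and no p-value. The intervals below are exact 95% intervals for counting error only, and neighbouring regions are not replicates. The strength of a region is given as the number of DNA fragments at its summit, recovered from the deposited fold and −log10 p. Sequencing depth was close, at 10.1 (ELF3) and 10.6 (NFKB2) fragments per kb, and ratios between the factors were divided by the depth ratio of 1.04. The 2 antibodies were not calibrated against each other here. A ratio above or below 1 therefore compares fragment counts and does not show which factor was more bound.

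The promoters of the class I genes show which letters lie just upstream of the genes of the locus. The stretches below are RefSeq sequences of GRCm38.p6, a different build from that of the regions, so their coordinates cannot be set beside region coordinates. They were chosen because each holds a match to a κB motif or to an interferon-type repeat before the first listed start of the gene. Each is given 5′ to 3′ on the strand of the gene, and capitals mark the matches. The κB motif was searched by its usual consensus, and the interferon-type repeat as GAANNGAAA or GAAANNGAA, on both strands. In H2-K1, H2-D1, H2-Q4, H2-Q6, H2-Q7 and H2-T22 the first run of capitals is the κB match and the second the interferon-type match.
H2-K1 (GRCm38.p6 chr17:34000419-34000468, minus strand): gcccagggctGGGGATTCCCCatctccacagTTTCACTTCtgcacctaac
H2-D1 (GRCm38.p6 chr17:35262913-35262962, plus strand): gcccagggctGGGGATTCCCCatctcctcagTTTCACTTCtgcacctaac
H2-Q4 (GRCm38.p6 chr17:35379433-35379482, plus strand): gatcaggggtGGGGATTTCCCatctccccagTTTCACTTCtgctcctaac
H2-Q6 (GRCm38.p6 chr17:35424667-35424716, plus strand): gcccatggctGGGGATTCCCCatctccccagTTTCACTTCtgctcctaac
H2-Q7 (GRCm38.p6 chr17:35439012-35439060, plus strand): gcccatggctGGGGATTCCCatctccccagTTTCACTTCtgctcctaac
H2-T22 (GRCm38.p6 chr17:36042914-36042965, minus strand): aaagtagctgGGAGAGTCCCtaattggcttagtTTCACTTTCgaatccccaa
H2-Q10 (GRCm38.p6 chr17:35469924-35469952, plus strand): atctccccagTTTCACTTCtgctcctaac
H2-T23 (GRCm38.p6 chr17:36032806-36032834, minus strand): tcctactgctTTCTCTTTCataaagacac

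Of the 14 class I genes listed, 10 had a promoter sequence; of these, 6 had both motifs and 8 had the interferon-type repeat. The letters TTTCACTTC were shared by 6 of the printed genes, among them the classical genes H2-K1 and H2-D1. They stood in 7 of 147 promoter windows of the locus (4.76%), 8 of 1458 of the rest of chromosome 17 (0.549%) and 166 of all 32851 windows (0.505%). All 7 locus windows belong to the same 6 genes that the letters were taken from. The higher share in the locus was therefore set by the choice of letters and is no separate result. The κB letters GGGGATTCCCC were shared by H2-K1, H2-D1 and H2-Q6 and stood in 10 of all 32851 windows. Of these, 4 were windows of the same 3 genes. The class I genes are closely related copies of each other, so they are not independent examples. H2-Q2 and H2-T3 had neither motif in the window.

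A wider search covered every promoter window, from 250 bases before to 50 bases after a listed start. For the 132 protein-coding genes that the RefSeq table lists from Tapbp to H2-T3, 113 matched a promoter entry, with 147 starts. A κB match was found at 35 of them, 23.8% (17.2 to 31.5), against 121 of 1458 starts on the rest of chromosome 17, 8.30% (6.93 to 9.83), and 8.46% of all starts. The share of starts with κB letters was thus higher inside the locus than on the rest of its chromosome, beyond the counting intervals. The sets differ in gene type, however, because the starts outside the locus were not limited to protein-coding genes. Those on the rest of chromosome 17 came from 1153 genes, while the whole chromosome has 1046 protein-coding genes. All starts include these too. The part that gene type plays in the difference was not tested. The interferon-type repeat stood at 26 starts, 17.7% (11.9 to 24.8), against 12.2% and 14.8%, and the ETS letters CGGAAG at 32 starts, 21.8% (15.4 to 29.3), against 17.8% and 16.9%. For these the interval of the locus held the other shares. The motifs can overlap, since the ETS and interferon-type letters both contain GAA, and a match is not evidence that a factor binds. All motif searches were chosen after region values were seen. The interferon-type search was widened after GAANNGAAA alone, found at 13 locus starts (8.84%, against 7.0% and 7.52%), had missed the matches of H2-T22 and H2-T23, so its count among the class I genes follows in part from the choice of letters.

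By group, the κB match was more frequent than the 8.46% of all starts, beyond the counting interval, among class I and class III housekeeping starts. It stood at 7 of 11 class I starts, 63.6% (30.8 to 89.1). Among class II starts it stood at 1 of 9, 11.1% (0.281 to 48.2), near the share of all starts, in H2-Aa, which encodes a class II α chain. Of the 5 peptide processing and loading genes, 4 had a promoter sequence, and 0 of these held a κB or interferon-type match. Of the TNF family and inflammation list, Ltb (lymphotoxin β), Ier3 (an early response gene) and Notch4 (a receptor of endothelium) had a κB match, at 3 of 9 starts, 33.3% (7.49 to 70.1). In the class III housekeeping list a κB match stood at 7 of 20 starts, 35% (15.4 to 59.2), including those of the heat shock genes Hspa1a and Hspa1b. In the chromatin and transcription list it stood at 3 of 15 starts, 20% (4.33 to 48.1). In the list of epithelial and other genes beyond H2-D it stood at 3 of 19, 15.8% (3.38 to 39.6). Both of these intervals hold the share of all starts. That share includes starts of genes that are not protein-coding. The complement genes C2, Cfb, C4a and C4b are named only. These windows are short, and no match says only that the letters are not in the window. Several starts of 1 gene and starts of related genes were counted separately here too, so the group intervals also take them as independent.

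Both factors had more regions per Mb in the locus than on the rest of chromosome 17, and the difference was wider for NFKB2. ELF3 had 68.8 regions per Mb (58.7 to 80.1) in the locus and 27.8 (26.7 to 28.9) elsewhere on the chromosome, a ratio of 2.48 (2.1 to 2.90). NFKB2 had 35 per Mb (27.9 to 43.3) and 6.06 (5.56 to 6.59), a ratio of 5.78 (4.54 to 7.28). The intervals of these ratios do not meet. The locus is 2.61% of the stretch of chromosome 17 that holds regions, and it carried 6.22% (5.33 to 7.21) of the ELF3 regions and 13.4% (10.8 to 16.3) of the NFKB2 regions of that chromosome. There were 1.96 ELF3 regions for each NFKB2 region in the locus and 4.58 on the rest of the chromosome. In covered length, ELF3 regions took up 5.91% of the locus and 1.89% of the rest, and NFKB2 regions 2.30% and 0.307%.

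The locus held more regions of either factor than any of 36 other stretches of its length on chromosome 17. These were laid out in steps of 2.4 Mb from the locus, and other offsets were not counted. The 36 other stretches held 9 to 131 ELF3 regions, with a median of 70, beside 165 in the locus. They held 0 to 49 NFKB2 regions, with a median of 8.5, beside 84. The nearest in ELF3 number was the stretch from 46.1 to 48.5 Mb, with 131, and in NFKB2 number the stretch from 24.5 to 26.9 Mb, with 49. The flanking stretches differed from each other, as the one before the locus held 122 ELF3 and 35 NFKB2 regions and the one after it 30 and 5.

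**Figure D1:**
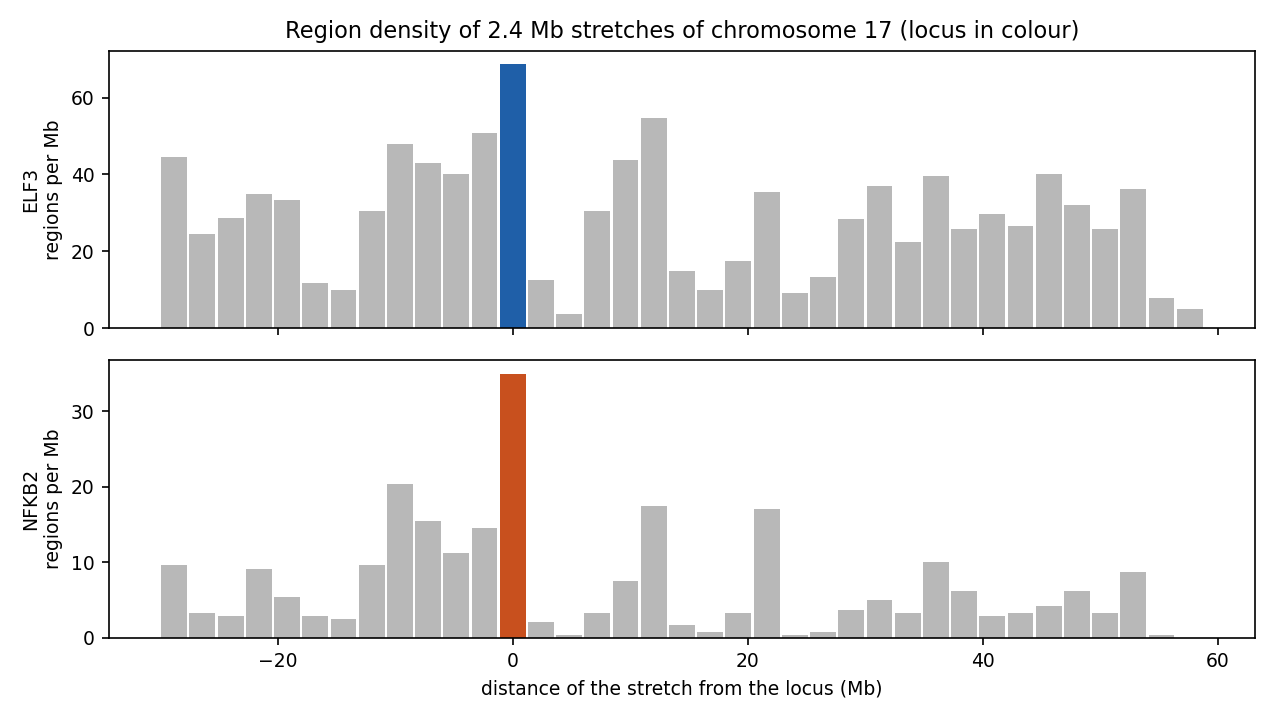
Regions per Mb (vertical axis) of ELF3 (top) and NFKB2 (bottom) in 37 stretches of 2.4 Mb of chromosome 17, by distance of the stretch from the locus in Mb (horizontal axis), 1 library each. The coloured bar is the locus, at 68.8 ELF3 and 35 NFKB2 regions per Mb, and no grey bar reaches it in either panel.

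The locus is also rich in genes, and per gene the picture was different. The RefSeq gene table of GRCm38.p6 lists 132 protein-coding genes from Tapbp to H2-T3, 12.6% of the 1046 of chromosome 17. Set against that number, the locus had 1.25 ELF3 regions per protein-coding gene and the rest of the chromosome 2.72. For NFKB2 the values were 0.636 and 0.594. Per gene, ELF3 regions were thus fewer in the locus and NFKB2 regions about as many. The gene order comes from another build and its ends need not be those of the 34.1 to 36.5 Mb stretch, so these quotients are rough. The part that gene number plays in the density was not tested.

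NFKB2 regions of the locus were also stronger than those elsewhere on the chromosome, by more than the ELF3 regions were. The median NFKB2 region had 22.5 fragments at its summit in the locus (quartiles 16 and 30, range 8 to 105) and 16 on the rest of chromosome 17 (quartiles 13 and 21). The median ELF3 region had 25 fragments (quartiles 16 and 42, range 6 to 162) against 22 (14 and 37). The density ratio of NFKB2 was higher among stronger regions, with overlapping intervals between the limits used. At 20 or more fragments the locus held 48 NFKB2 regions and the rest of the chromosome 179, a density ratio of 10 (7.13 to 13.8). At 30 or more it held 22 against 50, a ratio of 16.4 (9.48 to 27.6), and so 30.6% of such regions of the chromosome lay in the locus. At 60 or more, 5 lay in the locus and 5 in all the rest, a ratio of 37.3 (8.60 to 162). These intervals overlap, and each set of regions contains the next. Those at 30 and at 60 or more lie above the interval of all NFKB2 regions, 5.78 (4.54 to 7.28). The interval at 20 or more meets it. For ELF3 the ratios at 20, 30 and 60 or more fragments were 2.78 (2.26 to 3.38), 2.84 (2.18 to 3.65) and 3.47 (2.08 to 5.50), with overlapping intervals. These limits were chosen after the values were seen.

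Local background in the locus was near that of the rest of the chromosome, with somewhat fewer NFKB2 regions at the lowest level. The lowest background of a list, called the floor, was 1.22 fragments for ELF3 and 1.36 for NFKB2. It was found at 72.1% of ELF3 regions in the locus and 70.1% on the rest of the chromosome, and at 64.3% and 70.7% of NFKB2 regions. The highest background in the locus was 4.06 times the floor for ELF3 and 2.29 times for NFKB2, while single regions elsewhere on the chromosome reached 89.3 and 125 times. The density ratio among regions at the floor alone was 2.55 for ELF3 and 5.25 for NFKB2. Regions were somewhat wider in the locus, with a median of 501 bp against 425 bp for ELF3 and 429 bp against 333 bp for NFKB2.

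**Figure D2:**
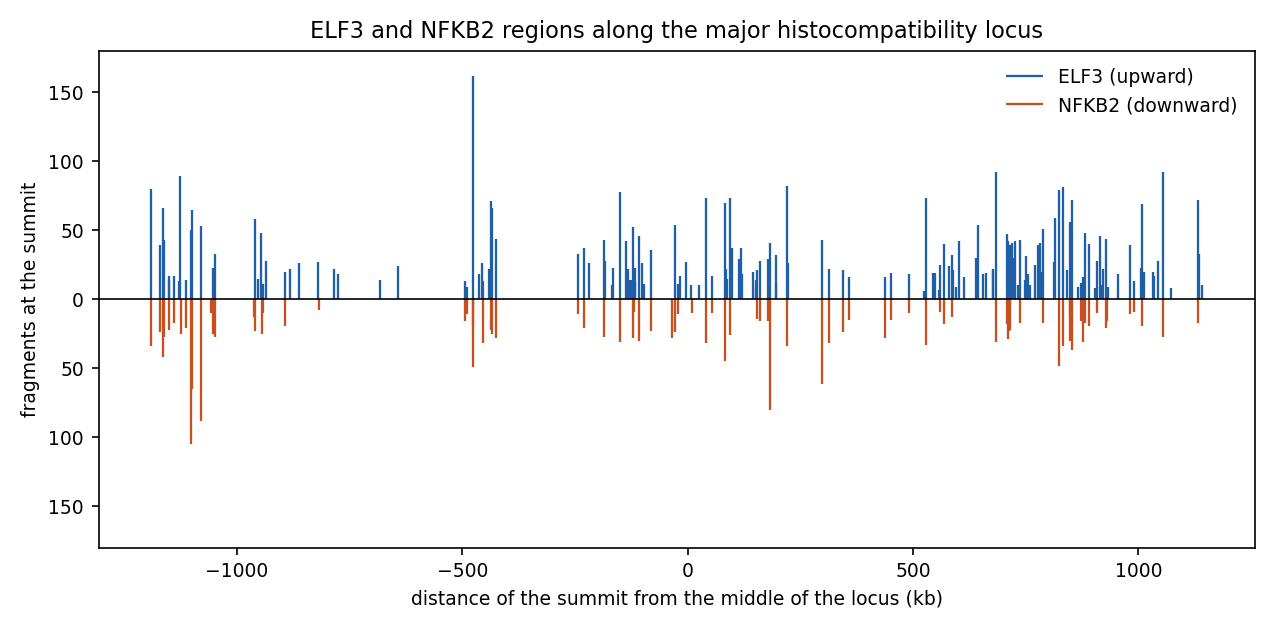
Fragments at the summit (vertical axis) of the 165 ELF3 regions (upward lines) and 84 NFKB2 regions (downward lines), by distance of the summit from the middle of the locus in kb (horizontal axis), 1 library each. The tallest ELF3 line, 162 fragments, and the tallest NFKB2 line, 105, stand at different places, and a stretch left of the middle is nearly empty of both factors.

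Along the locus the factors rose and thinned out together in some stretches and apart in others. In 12 windows of 200 kb, ELF3 had 3 to 29 regions and NFKB2 0 to 14. The first window, from 34.1 to 34.3 Mb, had nearly as many NFKB2 as ELF3 regions, 14 and 15. The window from 35.9 to 36.1 Mb had the most ELF3 regions, 29, but 7 NFKB2 regions. The window from 36.1 to 36.3 Mb had 22 and 14. Windows with few ELF3 regions also had few NFKB2 regions, while the window with most ELF3 regions did not have most NFKB2 regions.

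Few regions lay between 34.5 and 34.7 Mb, with 4 ELF3 regions of at most 24 fragments and 0 NFKB2 regions. The longest distance without NFKB2 ran 323 kb, from 34483206 to 34806262, and held 4 ELF3 regions wholly inside it. The longest without ELF3 ran 181 kb, from 34874951 to 35055745, and almost the same stretch, from 34874937 to 35055706, was without NFKB2. Distances elsewhere were short, with a median of 6.11 kb for ELF3 and 14.2 kb for NFKB2. A stretch of 98.0 kb from 35886652 to 35984622 without NFKB2 held 11 ELF3 regions wholly inside it, and 2 more reached over its ends.

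The NFKB2 regions with most fragments were concentrated in a few places. The strongest lay at chr17:34197697-34198283 and had 105 NFKB2 fragments (85.9 to 127) beside 50 for ELF3. The next lay further along, at chr17:34218510-34219737, with 88 NFKB2 (70.6 to 108) and 53 ELF3 fragments. Between them lay chr17:34200047-34200599, with 65 fragments of each factor. These 3 regions near the start of the locus were thus all among the 4 strongest NFKB2 regions of its 84.

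The other NFKB2 regions of 60 or more fragments lay further along. Region chr17:35481657-35483253 had 80 NFKB2 fragments and 41 for ELF3, and chr17:35598330-35599362 had 61 and 43. Below these, the NFKB2 counts dropped to 49 or fewer and ELF3 had more fragments at each of the next 5. Those were chr17:34822505-34823310 (49 NFKB2 and 162 ELF3 fragments), chr17:36123203-36125700 (48 and 79), chr17:35383855-35384507 (45 and 70), chr17:34134748-34135185 (42 and 66) and chr17:36152066-36152503 (37 and 72). The 10 NFKB2 regions of most fragments were all shared with ELF3, so they are also the 10 strongest shared regions by NFKB2. Even the strongest stood at place 52 of the whole NFKB2 list by −log10 q.

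The strongest ELF3 regions were elsewhere in most cases. Region chr17:34822356-34825492 led with 162 ELF3 fragments (138 to 189) over 3137 bp and held 2 NFKB2 regions, the stronger with 49 fragments. Its local background was 1.96 times the floor. After it came chr17:35984533-35984927 and chr17:36353585-36354057 with 92 ELF3 fragments each, where NFKB2 had 31 and 27. The counts then fell gradually, without a second region near the first.

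The next ELF3 regions were chr17:34174399-34175011 with 89 fragments, chr17:35520646-35521185 with 82, chr17:36131952-36135146 with 81, chr17:34108738-34110021 with 80, chr17:36123237-36127033 with 79 and chr17:35149915-35150599 with 78. NFKB2 had 25, 34, 34, 34, 48 and 31 fragments there. Regions chr17:35340205-35341240, chr17:35392913-35393892 and chr17:35827455-35828721 shared the tenth place with 73 ELF3 fragments. All 12 of these ELF3 regions overlapped an NFKB2 region, with 25 to 49 NFKB2 fragments at the strongest. None of the 5 NFKB2 regions of 60 or more fragments lay in them. Both factors were thus present at these 12 ELF3 regions. The next strongest NFKB2 regions, of 49 and 48 fragments, did lie in them.

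The ELF3 regions without NFKB2 were weaker. The 5 of most fragments were chr17:36114799-36115235 with 59, chr17:35944502-35947483 with 54, chr17:36214348-36214814 with 46, and, with 42 each, chr17:35901393-35902077, chr17:36026915-36027380 and chr17:35163255-35163617, which share the fourth place. The nearest NFKB2 summit was 6338 bp or more from each of these. The longest such distance was 39517 bp, at the region with 54 fragments. Of these 6 regions, 5 lay beyond 35.9 Mb.

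Almost all NFKB2 regions of the locus lay on an ELF3 region, as they did elsewhere. The overlap held for 81 of 84, 96.4% (89.9 to 99.3), against 527 of 543 on the rest of chromosome 17, 97.1%. Over the whole NFKB2 list the share was 96.8%, so this share is no different in the locus. The 3 exceptions were weak, with 10 fragments at chr17:34243340-34243628, 13 at chr17:34337042-34337252 and 8 at chr17:34482532-34483205. The second of these missed an ELF3 region by 13 bp, and the others lay 2421 and 1621 bp from the nearest ELF3 region.

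In the other direction the share was higher in the locus. Of its 165 ELF3 regions, 76 were shared with NFKB2, 46.1% (38.3 to 54.0), beside 511 of 2488 on the rest of the chromosome, 20.5% (19.0 to 22.2). Over the whole ELF3 list the share was 19.7%. Almost all NFKB2 regions lay on an ELF3 region in the locus and on the rest alike. The ELF3 share therefore follows largely from the region counts, with 1.96 ELF3 regions per NFKB2 region in the locus and 4.58 on the rest. It restates the density contrast and is not a separate result. Overlap is more frequent at stronger ELF3 regions, so the shares were also compared within 5 classes of ELF3 fragments, whose limits were set after the values were seen. The share in the locus was higher in each class, and its interval stood apart from that of the rest in 4 of the 5.

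Among the weakest ELF3 regions, of 13 or fewer fragments, 8 of 28 in the locus were shared, 28.6% (13.2 to 48.7), against 18 of 603, 2.99% (1.78 to 4.68). From 14 to 21 fragments 12 of 40 were shared, 30% (16.6 to 46.5), against 7.39%. From 22 to 35 fragments the values were 9 of 39, 23.1% (11.1 to 39.3), and 18.9%, where the intervals overlap. From 36 to 59 fragments they were 27 of 38, 71.1% (54.1 to 84.6), and 40.1%, and at 60 or more all 20 of the locus were shared, 100% (83.2 to 100), against 150 of 215, 69.8%. At the shares of the rest of the chromosome in each class, 40.4 of the 165 would have been shared, 24.5%, where 76 were. The total of 76 also follows largely from the number of NFKB2 regions in the locus. The higher share was thus seen at weak and at strong ELF3 regions, and between them it was within the counting intervals.

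**Figure D3:**
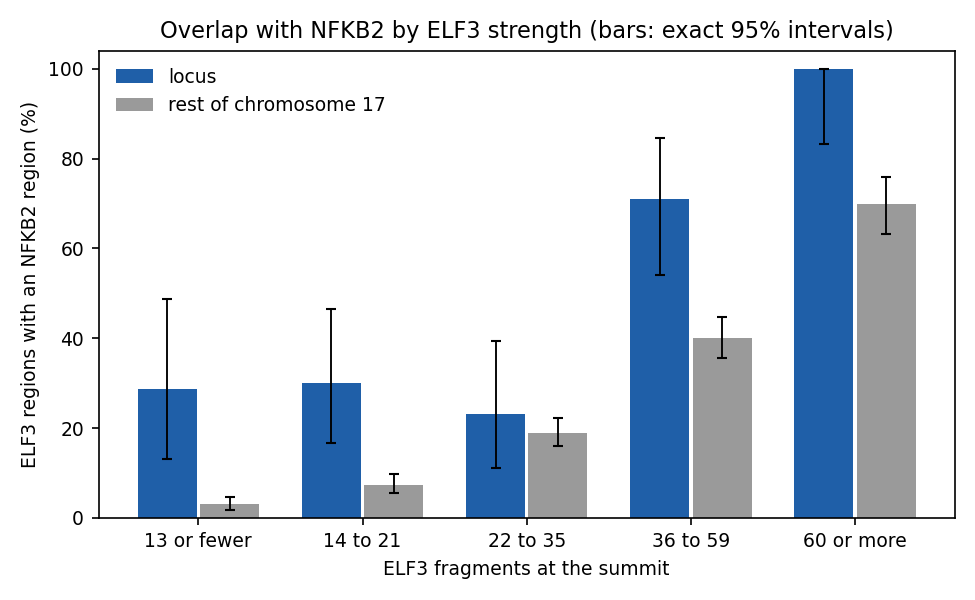
Percent of ELF3 regions that overlap an NFKB2 region (vertical axis) by class of ELF3 fragments at the summit (horizontal axis), in the locus and on the rest of chromosome 17, with exact 95% intervals for counting error, 1 library per antibody. The locus bars are above the grey bars in every class, with overlapping intervals in the class from 22 to 35 fragments.

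Where both factors shared a region, ELF3 mostly had more fragments, but less so in the locus. Each NFKB2 region was paired with the overlapping ELF3 region of most fragments. Over 81 pairs of the locus the median ratio of NFKB2 to ELF3 fragments was 0.540 (quartiles 0.379 and 0.898), against 0.368 (0.258 and 0.528) over 527 pairs of the rest of the chromosome. The median over all 13767 pairs was 0.388. Paired ELF3 regions had almost the same median strength in the locus as on the rest, 43 and 44 fragments, while paired NFKB2 regions had 23 and 17. Between these medians the difference therefore lay on the NFKB2 side.

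NFKB2 had the higher count in 15 of the 81 pairs, 18.5% (10.8 to 28.7), against 25 of 527 on the rest of the chromosome, 4.74% (3.09 to 6.92), and a background of 5.98% over all pairs. It was more than 2-fold higher in 2 pairs, 2.47% (0.3 to 8.64), beside 0.949% and a background of 0.552%; here the interval is too wide to set the locus apart. Of the 15 pairs, 4 had an interval wholly above 1, which is 4.94% of the 81 pairs (1.36 to 12.2). On the rest of the chromosome 4 of 527 pairs did, 0.759% (0.207 to 1.93), and over all pairs the background was 0.973%. The intervals of the locus and of the rest of the chromosome overlap, while that of all pairs, 0.816 to 1.15, lies below that of the locus. With pairs at the floor in both lists, 9 of 46 in the locus had more NFKB2, 19.6%, against 17 of 327, 5.2%. The share of such pairs at the floor was thus close to the share over all pairs, in the locus and on the rest.

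The largest ratio was 2.36 (1.20 to 4.89), at chr17:34845769-34846822, from 32 NFKB2 and 13 ELF3 fragments. Its summits lay 343 bp apart, so this value does not compare the factors at the same position. Among the pairs with more NFKB2, summits lay up to 547 bp apart. The strongest NFKB2 region, at chr17:34197697-34198283, had a ratio of 2.01 (1.42 to 2.88). Regions chr17:35481657-35483253 and chr17:34218510-34219737 had 1.87 (1.27 to 2.79) and 1.59 (1.12 to 2.28). These 4 are the pairs above counting error, and 3 of them are among the 5 NFKB2 regions of most fragments. In those 3 the summits lay 83, 57 and 11 bp apart. Of those 5, 4 had the higher count for NFKB2, and the other, chr17:34200047-34200599, had a ratio of 0.957 (0.668 to 1.37).

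At the other end stood regions where ELF3 had more fragments. The ELF3 leader chr17:34822356-34825492 had a ratio of 0.290 (0.206 to 0.401) at its stronger NFKB2 region. The lowest ratio of the locus, 0.112, was at the other NFKB2 region of this same ELF3 region. That NFKB2 summit lay 1934 bp from the ELF3 summit, so the value does not compare the factors at the same position. The pairs with more NFKB2 had a median of 17 ELF3 and 28 NFKB2 fragments, and the other pairs 45 and 22. Pairs with more NFKB2 are thus mainly at weaker ELF3 regions. Since they were picked for a high ratio, that contrast is a description and no further result.

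**Figure D4:**
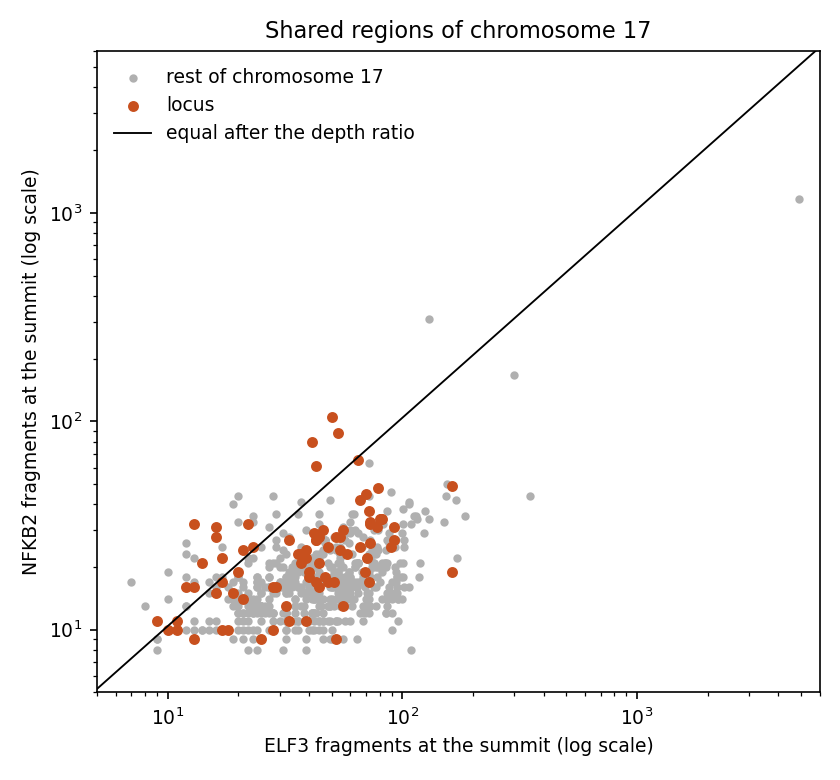
NFKB2 fragments (vertical axis, log scale) against ELF3 fragments (horizontal axis, log scale) at the summits of shared regions of chromosome 17, 81 pairs of the locus and 527 of the rest, 1 library per antibody. The line marks equal counts after the depth ratio of 1.04; 15 locus pairs and 25 of the rest lie above it.

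The ratio changed along the locus. In the first window, from 34.1 to 34.3 Mb, the median ratio was 0.957 and 5 of the 15 pairs with more NFKB2 lay there. From 35.5 to 35.7 Mb the median was 1.09, over 5 pairs, of which 3 had more NFKB2. In the ELF3-rich window from 35.9 to 36.1 Mb it was 0.379, and in the last window 0.264, over 3 pairs. The higher ratio of the locus was thus uneven, with a first window near equal counts and a last one below the median of the rest of the chromosome. These windows hold few pairs and were read after the values were seen.

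Summits of shared regions lay as close in the locus as elsewhere. The median distance between the NFKB2 and the ELF3 summit was 37 bp (quartiles 12 and 77), against 36 bp on the rest of the chromosome. Within 100 bp lay 65 of 81 summits, 80.2%, against 77.6%. In 5 ELF3 regions of the locus 2 NFKB2 regions were found. The widest was the widest region of the locus, chr17:35264347-35271307, with 6961 bp, 54 ELF3 fragments and up to 28 NFKB2 fragments. Another wide ELF3 region, chr17:35214012-35220364, had 36 ELF3 and 23 NFKB2 fragments. Both were above the median ELF3 strength of the locus, 25 fragments.

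The sources used here do not state how reads that fit several of the related class I genes were handled. Region counts in stretches of such copies are therefore uncertain. The series describes IgG as its negative control, and an IgG list was not analysed here. The part that signal common to any antibody in open chromatin plays in the shared regions was not tested.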

How the data were processed

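CUT&RUN region lists of 2 libraries, ELF3 and NFKB2, were used, each its own group by its label. The peak caller was MACS2, according to the submitters' processing notes. Its version, its settings and the aligner were not given in the sources used here, nor was any read filter. In the deposited lists the score is 10 times −log10 q without its decimals, the fold is a ratio of signal at the summit to local background, and −log10 p and −log10 q belong to that position. The notes name mm10, but sequence names in the files belong to GRCm39, so coordinates were left as in the files, 1-based, and never combined with the RefSeq tables of GRCm38.p6, which gave names, gene order and promoter sequences.

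The counts rest on an assumed model of the caller, a Poisson tail with 1 added to signal and background in the fold. Under it, the fold and −log10 p together fix the whole number of fragments and the local background. A solution within 0.01 in −log10 p (scaled up for values above 100) was found for all regions except 1 ELF3 and 3 NFKB2 regions, none of them in the locus; 2 NFKB2 regions of the locus, each listed with 27 fragments, have more than 1 solution. Depth came from steps in the background, with fragment lengths of 121 and 129 bp. The recovery was run on simulated lists made with the same formulas, which cannot test whether the model of the caller is right. Overlap means 1 bp or more. Intervals are exact (Clopper-Pearson, Poisson and conditional binomial, 95%). The rest of chromosome 17 is 89.6 Mb, the stretch that holds regions less the locus. Python 3.11.15, numpy 2.4.6, pandas 2.3.3 and scipy 1.17.1 were used. Named regions are, per library, the 10 of most fragments (ties kept), the 10 shared regions of most NFKB2 fragments, every NFKB2 region without ELF3 and the 5 strongest ELF3 regions without NFKB2; the pairs above counting error, the highest ratio and the widest regions were named after their values were seen. The members and lists were chosen with earlier results of these data known. Shares of gene starts and the marker check need an annotation of the files' build and were not run.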

Additional observations from a re-analysis of the deposited data

How the results depend on the processing

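Of 30 values recomputed under other settings, 21 stayed within the interval of the value reported and 9 moved, and each density ratio stayed above 1 and each ELF3 share above that of the rest of chromosome 17. At −log10 q of 10 or more the NFKB2 density ratio was 9.61. The ELF3 share with NFKB2 was 88.9% with the ELF3 list shortened to the length of the NFKB2 list (54.6% on the rest) and 37.8% with both lists at the floor (18.5%). The NFKB2 share on ELF3 was 77.4% with summits within 100 bp (75.3% on the rest), 53.6% with equal numbers (56.7%) and 85.2% at the floor (85.2%). With equal numbers the median ratio of NFKB2 to ELF3 was 0.420 in the locus and 0.280 on the rest; scaled by the floor it was 0.347 on the rest, beside 0.508 in the locus. Equal numbers and the floor shorten a list, and the summit rule is stricter, by construction. The settings at the floor for the shares, the floor scaling and the equal numbers for the ratio were chosen after the data were seen. Alternatives for gene starts were not run. No paired analysis was possible because each antibody has 1 library. A listed region had at least 6 ELF3 or 8 NFKB2 fragments, so weaker binding would go unseen.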
